A study of Ovis aries with 36 samples.

Results

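In unoperated muscle of sheep, 468 of 12392 genes (3.78%) parted all 6 animals that had received nandrolone from all 3 that had not. The 12392 are the genes that could have been chosen, out of 25197 in all. Further limits left the 46 genes described here, 20 higher and 26 lower in the treated animals. Of all 16417 genes tested by limma, 0 were called between treated and CONTROL animals in this muscle at a false discovery rate of 0.05. The 46 were chosen by their measured values. On the log2(value + 1) scale, every treated value in the unoperated muscle had to lie above, or every one below, each CONTROL value. The treated minus CONTROL mean had to exceed 0.5 in size there and, with the same sign, in the operated muscle on the same occasion. The mean change over tendon release in the 9 animals had to lie within 0.7 of 0, so genes that release moved strongly in all arms were left out. Genes could be chosen if their value was above 1 in all 36 libraries and their median was from 10 to 10000, and 40 identifiers were left out by name, 1 of which met every other criterion. The treated against CONTROL values of both muscles at the end of the experiment are therefore a description of the choice and are given without a test.

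The animals were female Swiss Alpine sheep of 2 years whose infraspinatus tendon was released and was reattached after 16 weeks. All 3 arms had this surgery: CONTROL received no drug, N22W received 150 mg of nandrolone decanoate weekly for all 22 weeks from release, and N6W received the same weekly dose for the 6 weeks after repair only. Each arm is represented by 3 animals of the 6 in the design, and 4 libraries of total RNA, made from pooled cryosections, come from each animal: the muscle before release (PRE), at repair (TR) and 6 weeks after repair (END), and the muscle of the other, unoperated shoulder at that last occasion (END-CC). Thus N6W animals were without drug at PRE and TR, and N22W animals at PRE. No animal kept 2 intact shoulders or received the drug without surgery, so END-CC is muscle that was itself not operated in an animal that was.

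The infraspinatus is a muscle of the rotator cuff, the group that holds the head of the upper arm bone in its socket. When its tendon is torn or released the muscle shortens, loses fibre mass and takes up fat. Nandrolone decanoate is an injectable depot form of nandrolone, an anabolic steroid related to testosterone. Nandrolone binds the androgen receptor, a transcription factor found in muscle fibres and in other cells of muscle. Unoperated muscle of treated animals addresses whether transcripts differ under the drug away from the released tendon.

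Genes are given by Ensembl identifier, since none of the 25197 could be paired with a name. The labelled tissue and other cell types could therefore not be checked against their markers, and the roles of the 46 genes are not given. In bulk muscle, fewer cells of a type and less RNA per cell cannot be told apart. Values are normalized reads, with each library's reads divided by its own size factor. Libraries held 11879736 to 43065773 reads. A set of 12 libraries, those from PRE and TR in CONTROL and N22W, differed from the remaining 24. Among the 12392 genes, 64 (0.5165%) were over 8-fold higher in each of the 12 than in any of the 24, and of the 46 only ENSOARG00000017989 was. Another lower gene fell short of that limit but also split by set, with 357 to 1345 in the 12 and at most 57.4 in the 24. The higher gene ENSOARG00000014756 split by set too, by a narrow margin, with 20.86 to 57.63 in the 12 and 1.246 to 20.43 in the 24. Levels at PRE and TR of CONTROL or N22W were therefore not tested against levels in the other 24 libraries, where set and condition cannot be told apart. Changes from PRE to TR stay inside a set in each animal, but those of N6W lie in the other set than those of N22W, so they are given against CONTROL alone as well.

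Treated and CONTROL animals did not overlap at END-CC in 468 of the 12392 genes (3.78%), 222 higher and 246 lower in treated animals. In 185 of these the mean difference exceeded 0.5. At END, 25 of the 185 had the opposite sign and 91 the same sign but a smaller difference. Of the 69 that passed there, 23 were removed by their change over release and 46 remained. The smallest END-CC difference inside the limit was 0.53 and the largest outside was 0.49. For END they were 0.51 and 0.50, and for the release change 0.69 inside and 0.71 outside.

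At END-CC the 20 higher genes lay 1.44 to 2.81-fold above CONTROL, with a median of 1.80-fold on the log2(value + 1) scale, and 7 of them at least 2-fold. The 26 lower genes lay 1.44 to 3.41-fold below, with a median of 1.86-fold, and 11 at least 2-fold. These were mostly genes of modest abundance: their median values over the 36 libraries ran from 12.1 to 4741.5 normalized reads, with a median of 46.1 for the higher and 89.4 for the lower genes. In 15 of the 46 some library held fewer than 10 reads.

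The gap between the arms was often narrow. Between the closest treated and the closest CONTROL animal it was 0.010 to 0.695 on the log2 scale, with a median of 0.181. The CONTROL animal nearest to the treated ones was 2903 in 21 genes, 2902 in 19 and 2901 in 6. The nearest treated animal belonged to N22W in 22 genes and to N6W in 24, and no single treated animal held the place in more than 12. Without CONTROL animal 2903 the same rule chose 139 genes, 37 of them among the 46. Without 2901 it chose 107, with 37 of the 46, and without 2902 it chose 77, with 33 of the 46.

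**Figure D1:**
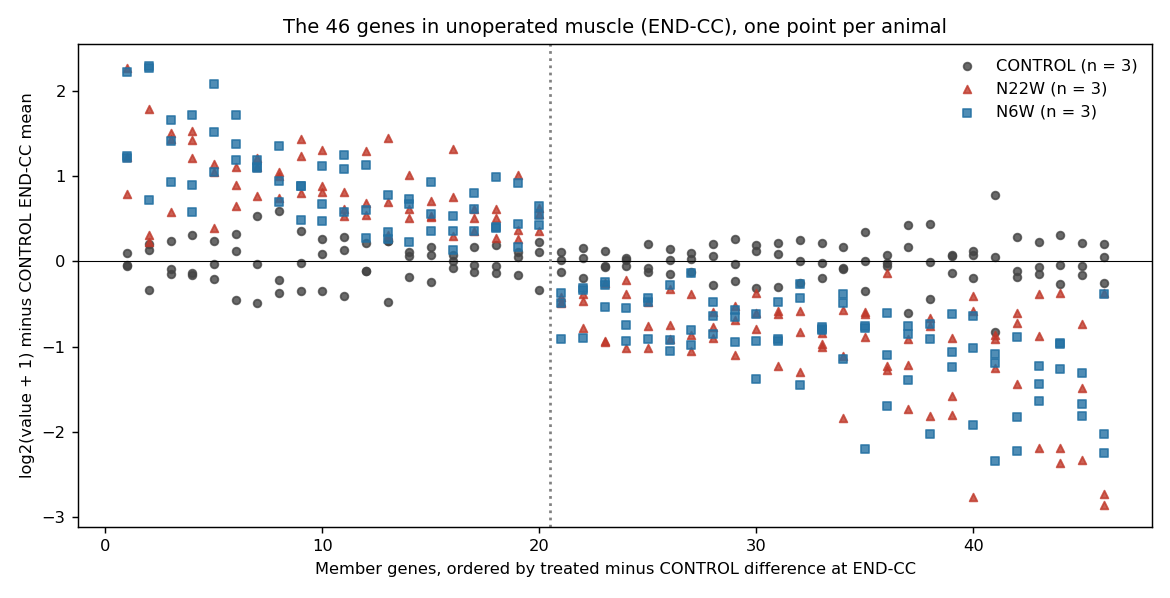
Log2(value + 1) in END-CC of each animal minus the CONTROL END-CC mean (y axis) for the 46 genes (x axis, ordered by their difference), with 3 points per arm. All treated points lie above all CONTROL points for the 20 genes left of the dotted line and below them for the 26 to its right, as the rule requires, with gaps from 0.010 to 0.695.

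Over all genes, limma called no gene at END-CC between treated and CONTROL animals (0 of 16417, 0%), with 1278 at an unadjusted p under 0.05. At END it called none either (0 of 16417, 0%), with 1052 at an unadjusted p under 0.05. The edgeR quasi-likelihood test called 0 genes at either site, and DESeq2 called 39 at END-CC and 70 at END. These comparisons chose the 46 genes, so calls among them are not given as a result.

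ENSOARG00000008705 had the largest difference among the higher genes. In END-CC its values were 90.38, 90.84 and 99.99 in CONTROL, 453.1, 220.7 and 162.5 in N22W and 218.7, 221.6 and 439.2 in N6W. The lowest treated animal thus stood well clear of the highest CONTROL animal, and this was the widest gap of the 46 genes (0.695). The means were 93.7 ± 5.42 in CONTROL, 279 ± 154 in N22W and 293 ± 126 in N6W (SD, n = 3 each), a 2.81-fold difference between treated and CONTROL animals.

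ENSOARG00000014756, second among the higher genes, was scarce. It had 3.805, 2.455 and 4.04 normalized reads in CONTROL END-CC, from 4, 2 and 4 reads. N22W had 14.12, 4.103 and 4.44, and N6W 20.01, 6.19 and 20.43. Animals of both treated arms split into high and low values, and the lowest treated animal lay only 0.018 above the highest CONTROL animal on the log2 scale. Its 2.41-fold difference rests on few reads.

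ENSOARG00000017989 had the largest difference of all, 3.41-fold lower in treated animals. Its END-CC values were 39.96, 31.92 and 44.44 in CONTROL, 29.52, 4.923 and 4.44 in N22W and 29.34, 8.666 and 7.296 in N6W. One animal of each treated arm, 2913 and 2907, stood close to CONTROL and the other 4 far below. Animal 2907 already had 30.57 at PRE and 28.65 at TR, before any drug, where N6W animals 2908 and 2909 had 3.913 and 9.692 at PRE. In the 12 libraries that stand apart the same gene had 858.4 to 1540, where set, arm and sampling cannot be told apart.

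ENSOARG00000020340 was next among the lower genes. CONTROL END-CC values were 401.5, 309.3 and 332.3, against 68.02, 122.3 and 206.9 in N22W and 108, 138.7 and 97.76 in N6W. All 6 treated animals lay clearly below the 3 CONTROL animals, at 0.578 on the log2 scale the widest gap among the lower genes, for a 2.94-fold difference. N6W animals had values of the same size before the drug, 102.5, 110.9 and 111.5 at PRE.

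The other 3 named genes were taken for their change over release, described further on. ENSOARG00000003193 had 21.88, 30.69 and 22.22 in CONTROL END-CC, 68.02, 58.26 and 72.81 in N22W and 46.68, 37.14 and 83.17 in N6W. ENSOARG00000003424 had 38.05, 39.28 and 31.31 in CONTROL, 26.95, 23.8 and 4.44 in N22W and 22.67, 17.33 and 8.755 in N6W. ENSOARG00000017409 had 1039, 901 and 1049 in CONTROL, 332.4, 283.9 and 531 in N22W and 421.4, 476.6 and 646.4 in N6W. The first was higher and the others lower in each treated animal than in each CONTROL animal.

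In the operated muscle at END, where a difference of the same sign was required, the median difference was 0.63 for the higher and −0.81 for the lower genes, against 0.84 and −0.89 at END-CC. It was larger in size at END than at END-CC in 17 of the 46, and reached 2-fold in 4 higher and 6 lower genes. Treated and CONTROL animals did not overlap at END in 12 of the 46 (7 higher, 5 lower), where 2.69% of the 12392 genes had groups apart in their END-CC direction. The rule used the END means, so nothing is read from the distance between these shares. ENSOARG00000003424 had the largest END difference of the 46 (log2 −2.16), with 100.9, 213.7 and 60.67 in CONTROL, 11.66, 19.22 and 13.1 in N22W and 63.98, 27.37 and 33.79 in N6W. The N22W animals were far below CONTROL, while N6W animal 2907 reached into the CONTROL range.

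N22W and N6W, with 22 and 6 weeks of drug, lay at similar median distances from CONTROL. At END-CC the higher genes lay a median of 0.83 above CONTROL in N22W and 0.75 in N6W, and the lower genes 0.89 and 0.88 below (log2 −0.89 and −0.88). At END the medians were 0.72 and 0.68 for the higher and −0.82 and −0.83 for the lower genes. N22W was the farther from CONTROL in 23 of the 46 at END-CC and in 22 at END. The rule required both arms to lie on one side of CONTROL at END-CC, which narrows the room for a difference between them there, and both arms are compared with the same CONTROL libraries.

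Between N22W and N6W, limma called 0 of the 46 at END-CC (0% of all genes) and 0 at END (0%). At an unadjusted p under 0.05 it found 1 of the 46 at END-CC, where 8.87% of all genes did so, and 7 at END, where 6.4% did. EdgeR called 0 of the 46 at either site and so did DESeq2, which gave no adjusted p for 40 of them at END-CC. Of all 16417 genes edgeR called 0 at either site, and DESeq2 called 29 at END-CC and 10 at END. The arms did not overlap in 2 of the 46 at END-CC (14.6% of the 12392 genes) and in 7 at END (12.4%). The rule used the END-CC values of both arms and their joint mean at END. Counts at both sites are thus shaped by the rule, and nothing is read from their distance to the share of all genes. At END, ENSOARG00000003193 had 70.92, 64.06 and 68.63 in N22W against 119.5, 94.41 and 129.2 in N6W, with log2 −0.73 (SE 0.32, adjusted p = 0.765). ENSOARG00000003424 had a difference of −1.38 (SE 0.46, adjusted p = 0.757).

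Libraries taken before END were not used for the treated against CONTROL choice. They come from the same animals, so they are other biopsies and not other sheep. At PRE, without drug in any arm, the share of the 46 with the END-CC sign was near that of all genes. The sign of the N22W minus CONTROL difference was that of END-CC in 25 of the 46 (11 higher, 14 lower), and in 52.34% of the 12392 genes. The median difference was 0.03 for the higher and −0.00 for the lower genes. The 3 animals of each arm stood apart in 10 of the 46 (11.2% of the 12392 genes), but only in 3 of them in the END-CC direction (6.11%). At PRE limma called 0 of the 46 (0% of all genes), and edgeR and DESeq2 called 0. Of all 16417 genes edgeR called 0 and DESeq2 called 17. At an unadjusted p under 0.05 limma found 9 of the 46, where 4.83% of all genes did so. Of these 9, 4 lay in the END-CC direction, where 2.77% of all genes did so.

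At TR, after 16 weeks of drug in N22W, most of the 46 lay on the side of CONTROL that they took at END-CC. The difference had the END-CC sign in 44 of the 46, 18 of the 20 higher and all 26 lower genes, where 60.59% of the 12392 genes had it. Higher genes lay a median of 0.38 above and lower genes a median of 0.68 below CONTROL (log2 −0.68). In the END-CC direction the median over the 46 was 0.53, and over the 12392 genes 0.05. The difference exceeded 0.5 in that direction in 24 of the 46, 7 higher and 17 lower, and in the opposite direction in 1. In 20 genes the sign was against END-CC at PRE and with it at TR, and in 24 it was with END-CC at both. The counts beyond 0.5 and of signs at both samplings were not taken over the 12392 genes, so they only describe the 46.

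The animals of the 2 arms stood apart at TR in the END-CC direction in 14 of the 46 (6 higher, 8 lower), where 6.61% of the 12392 genes did so. None of the 46 stood apart in the opposite direction. Of the 12392 genes, 627 were apart with N22W higher and 482 with N22W lower, 819 of them in the END-CC direction. In 12 of the 14 genes the arms overlapped at PRE, where they stood apart in 11.2% of the 12392 genes. At TR limma called 1 of the 46, ENSOARG00000003424 (0.0244% of all genes), and 11 had an unadjusted p under 0.05, all in the END-CC direction (2.96%). The other 45 did not pass singly with 3 animals in each arm.

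**Figure D2:**
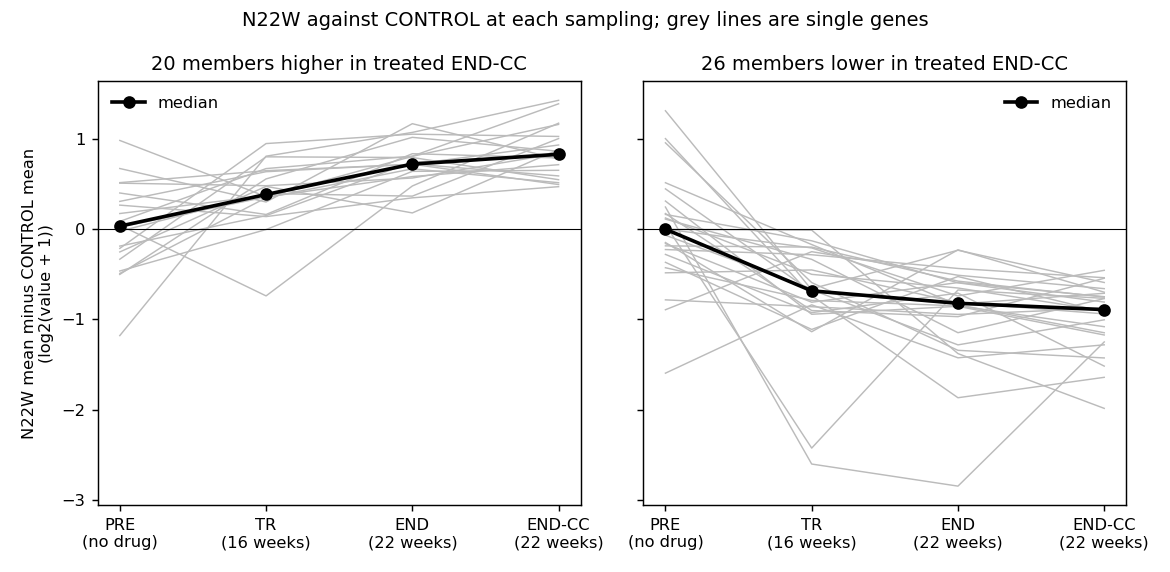
N22W mean minus CONTROL mean of log2(value + 1) (y axis) at each sampling (x axis), with 3 animals per arm, 1 grey line per gene and the median in black. The medians start at 0.03 and −0.00 at PRE and reach 0.38 and −0.68 at TR, and the END and END-CC values to their right are those the genes were chosen by.

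ENSOARG00000003424 carried the TR call. CONTROL animals had 112.7, 159.7 and 117.8 normalized reads at TR, and N22W animals 15.05, 27.54 and 20.09. Each N22W animal was far below each CONTROL animal, with log2 −2.60 (SE 0.30, limma adjusted p = 0.027). At PRE the arms overlapped, with 50.22, 47.2 and 35.59 in CONTROL and 65.3, 76.37 and 28.25 in N22W. The TR call was lost when any of the animals 2901, 2902, 2903, 2913, 2915 or 2909 was left out (log2 −2.40 to −2.70), with only the libraries of both arms (adjusted p = 0.0585) and with no filter on low values (adjusted p = 0.101).

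ENSOARG00000008705 at TR had 236.9, 194.3 and 232.8 in CONTROL and 371.4, 402.1 and 387 in N22W. The N22W animals lay close together above all CONTROL animals (log2 0.81, SE 0.14, adjusted p = 0.245 by limma). At PRE they had lain below them, with 133.7, 137.5 and 97.19 against 191.1, 219.9 and 501.9. ENSOARG00000003193 stood apart at TR too, with 57.99, 66.09 and 81.52 in CONTROL and 101.7, 108 and 116.5 in N22W (log2 0.67, SE 0.39, adjusted p = 1). For ENSOARG00000020340 the arms overlapped at TR: 281.6, 191.2 and 287.1 in CONTROL against 109.6, 102.5 and 198.2 in N22W (log2 −0.93, SE 0.28, adjusted p = 0.892).

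The genes with the largest END-CC differences did not all differ at TR. ENSOARG00000017989 had 1001, 999.2 and 897.7 in CONTROL at TR and 858.4, 1125 and 906.6 in N22W, a log2 difference of −0.01 (SE 0.55). Both arms are in the set that stands apart at TR. ENSOARG00000014756, which also split by set, had 28.99, 23.6 and 22.65 in CONTROL and 32.51, 24.24 and 37.49 in N22W (log2 0.30, SE 0.31). Both overlapped between the arms.

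**Figure D3:**
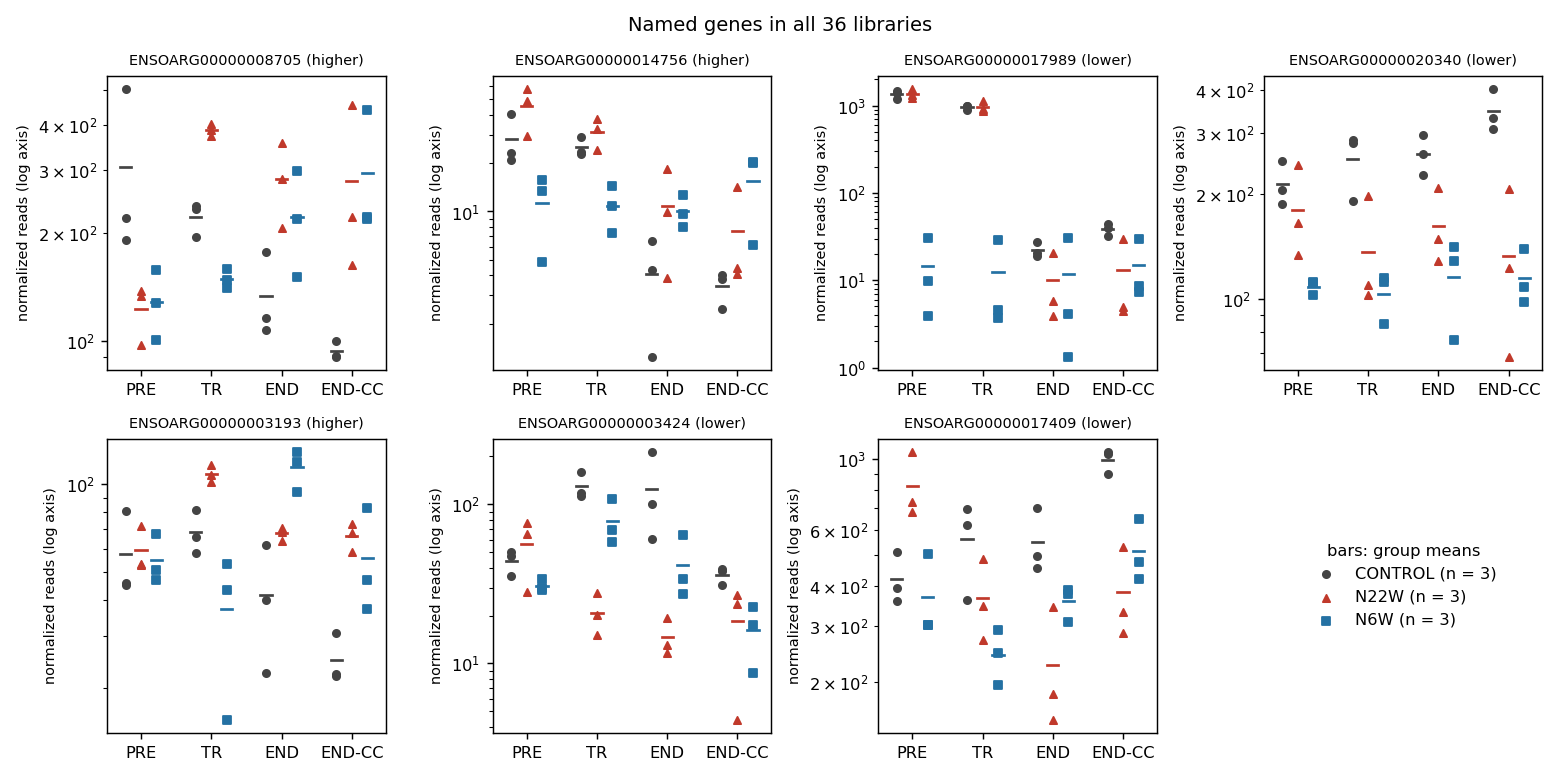
Normalized reads (y axis, log scale) of the 7 named genes in every library, by sampling (x axis) and arm, with 3 points per arm and a bar at the mean. ENSOARG00000003424 parts N22W from CONTROL at TR and END, while ENSOARG00000017989 has 858.4 to 1540 at PRE and TR in CONTROL and N22W and at most 44.44 in every other library, where set and condition cannot be told apart.

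The change from PRE to TR within each animal is taken from that animal's own starting level, so differences between arms at PRE enter it. Of the 9 genes with an unadjusted p under 0.05 at PRE by limma, 4 lay in the END-CC direction. The others lay against it, which enlarges their change in the END-CC direction. Higher genes had a median change of 0.32, 0.27 and 0.16 (log2) in the 3 N22W animals, against −0.08, −0.09 and −0.06 in CONTROL and −0.27, −0.20 and 0.20 in N6W, both without drug. Lower genes had −0.92, −0.44 and −0.46 in N22W, against 0.15, −0.16 and 0.26 in CONTROL and 0.20, 0.10 and −0.15 in N6W. For the lower genes each N22W animal lay below each of the 6 untreated animals. For the higher genes N6W animal 2909, at 0.20, lay above N22W animal 2915, at 0.16. The medians of all 12392 genes ran from −0.12 to 0.02 in the 9 animals.

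**Figure D4:**
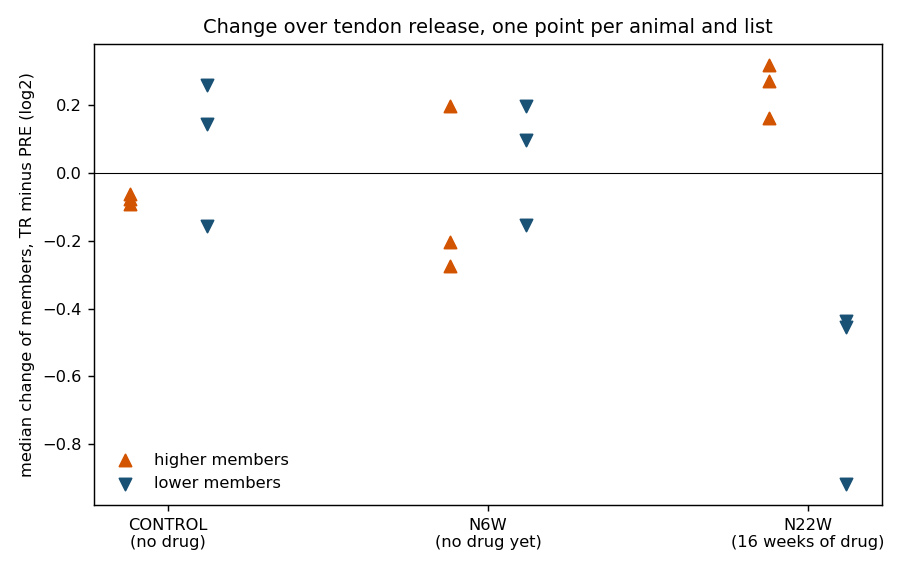
Median change from PRE to TR (y axis, log2) of the 20 higher and the 26 lower genes in each animal, by arm (x axis), 1 point per animal and list. The lower genes had medians from −0.92 to −0.44 in N22W and from −0.16 to 0.26 in the 6 animals without drug.

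Set against the 6 animals without drug, the N22W change lay in the END-CC direction in 39 of the 46, 15 higher and 24 lower, and in 58.32% of the 12392 genes. The median difference was 0.35 for the higher and −0.57 for the lower genes. Limma called 2 of the 46, where it called 0.0548% of all genes: ENSOARG00000008705 with a higher and ENSOARG00000003424 with a lower change under the drug. The N6W side of this comparison comes from the other set of libraries. At an unadjusted p under 0.05 it found 16, all in the END-CC direction, 3 higher and 13 lower, where 5.75% of all genes did so. The N22W changes lay apart from those of all 6 other animals in the END-CC direction in 8 of the 46 (2 higher, 6 lower), where 2.13% of the 12392 genes did so.

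Against CONTROL alone, whose PRE and TR libraries belong to the same set as those of N22W, the direction was that of END-CC in 37 of the 46 (56.21% of the 12392 genes). The medians were 0.34 and −0.63. Limma called 0 of the 46 (0% of all genes), with 14 at an unadjusted p under 0.05 (6.64%), 13 of them in the END-CC direction (4.41%). EdgeR called 3 of the 46 and 11 of all 16417 genes, and DESeq2 called 4 of the 46 and 27 of all 16417. The smallest adjusted p in limma was 0.0677, shared by ENSOARG00000008705 (log2 1.99, SE 0.38), ENSOARG00000003424 (−2.85, SE 0.53) and ENSOARG00000017409 (−1.55, SE 0.26).

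ENSOARG00000003424 had TR minus PRE values of −2.05, −1.44 and −0.47 (log2) in the 3 N22W animals, 1.15, 1.74 and 1.70 in CONTROL and 1.84, 0.76 and 1.21 in N6W. It was thus lower at TR than at PRE in each treated and higher in each untreated animal, and 1 of the 46, this gene, had such opposite signs in every animal, for a difference of −2.72 (SE 0.46, limma adjusted p = 0.0195). ENSOARG00000008705 had 1.47, 1.54 and 1.98 in N22W, 0.31, −0.18 and −1.11 in CONTROL and 0.65, −0.17 and 0.22 in N6W (difference 1.71, SE 0.33, adjusted p = 0.0432). Each N22W animal was above each untreated one, and the low PRE values of N22W enter this difference.

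Both calls depended on the settings. Neither held with only the libraries compared (adjusted p = 0.108 for ENSOARG00000003424 and 0.20 for ENSOARG00000008705) or without the animal as a block (0.23 for either). That of ENSOARG00000003424 was lost without animal 2902, 2903, 2907, 2913 or 2914 (differences of −2.67 to −2.35), and that of ENSOARG00000008705 without any of these or without 2908 or 2915 (1.51 to 1.81). With a pseudocount of 0.5 ENSOARG00000008705 had an adjusted p of 0.0535. The sign stayed in each of these settings.

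ENSOARG00000017409 and ENSOARG00000003193 came next by p. The former had TR minus PRE values of −1.08, −1.34 and −1.11 in N22W, 0.29, −0.13 and 0.96 in CONTROL and −0.06, −0.63 and −1.03 in N6W. Each N22W animal lay below each untreated animal, by a small margin to N6W animal 2909 (difference −1.08, SE 0.23, adjusted p = 0.0717 by limma). DESeq2 put it past the threshold (adjusted p = 0.0174), as did limma without animal 2909 (adjusted p = 0.0323). N22W started above CONTROL in this gene, with 733, 683.8 and 1053 at PRE against 509.9, 394.7 and 358.4. ENSOARG00000003193 had 0.50, 1.02 and 1.12 in N22W, 0.33, 0.54 and 0.01 in CONTROL and −2.05, −0.23 and 0.18 in N6W, and the arms overlapped (difference 1.08, SE 0.38, adjusted p = 0.443).

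In N6W animals the drug period can be compared with the time before it, since all of their libraries belong to the same set. Their END-CC values helped to choose the genes, so this is a description without a test. END-CC is also the other shoulder, 22 weeks after PRE. The mean of END-CC minus PRE over the 3 animals lay in the direction of the treated against CONTROL difference in 14 of the 20 higher and 12 of the 26 lower genes, where 48.48% of the 12392 genes did so. The median change was 0.24 for the higher and 0.06 for the lower genes. In 11 of the 46 the change exceeded 0.5 in that direction, and in 5 it exceeded 0.5 against it. END-CC and PRE did not overlap in the direction of the treated against CONTROL difference in 11 of the 46, where 12.1% of the 12392 genes did so.

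**Figure D5:**
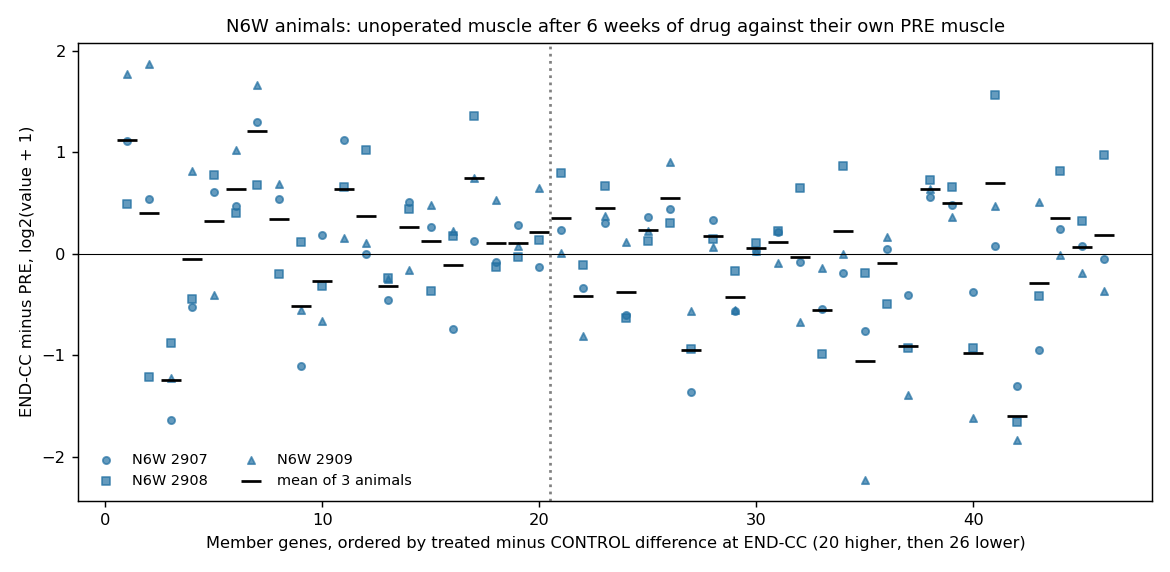
END-CC minus PRE in log2(value + 1) (y axis) for each of the 3 N6W animals and their mean (bar), for the 46 genes (x axis, ordered as in the plot of END-CC values). The means lie above 0 for 14 of the 20 higher genes and below 0 for 12 of the 26 lower genes, with points on both sides of 0 in many genes.

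N6W levels before the drug can be set beside their END-CC levels. At PRE the N6W mean lay a median of 0.49 above the CONTROL END-CC mean for the higher genes, where at END-CC it lay 0.75 above. For the lower genes it lay a median of 0.86 below at PRE and 0.88 below at END-CC (log2 −0.86 and −0.88). Both values use the same CONTROL END-CC libraries, which had to be extreme for a gene to be chosen, and are given side by side for that reason. PRE of N6W and END-CC of CONTROL differ in animals, in shoulder and by 22 weeks, which cannot be told apart here. For ENSOARG00000020340 the N6W level before the drug was as low as after it. Its N6W mean was 108 ± 5.03 at PRE, 104 ± 16.6 at TR and 115 ± 21.3 at END-CC, against 348 ± 48.0 in CONTROL END-CC (SD, n = 3 each).

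ENSOARG00000017409 was also below CONTROL END-CC before the drug, with 302.1, 302.6 and 504 in N6W at PRE and 421.4, 476.6 and 646.4 at END-CC, so it was higher at END-CC than at PRE in each N6W animal and below CONTROL at both. For ENSOARG00000008705 N6W animals had 100.7, 157.8 and 127.6 at PRE and 218.7, 221.6 and 439.2 at END-CC. All 3 END-CC values were above all 3 PRE values, a log2 change of 1.12, and PRE lay only 0.43 above CONTROL END-CC. ENSOARG00000003424 had 29.67, 33.92 and 29.07 at PRE and 22.67, 17.33 and 8.755 at END-CC, again without overlap (log2 −0.98).

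In the operated muscle of N6W, END minus TR lay in the treated against CONTROL direction in 34 of the 46, 14 higher and 20 lower, and in 52.28% of the 12392 genes. END values also entered the choice. The median change was 0.24 for the higher and −0.29 for the lower genes. In 7 of the 46 END and TR did not overlap in that direction, where 4.58% of the 12392 genes did so. ENSOARG00000003193 had the largest change, from 15.52, 43.28 and 53.2 at TR to 119.5, 94.41 and 129.2 at END (log2 1.75). The release change of N22W against untreated animals, END-CC minus PRE in N6W and END minus TR in N6W all had the sign of the END-CC difference in 19 of the 46, and none of the 3 had it in 1.

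Operated and unoperated muscle of the same animals differed in 14 of the 46 by limma with the animal as a block, where 38.8% of all genes tested did so. Of these, 4 were higher in END than in END-CC (20.3% of all genes) and 10 lower (18.5%). ENSOARG00000003424 was higher in the operated muscle (log2 0.95, SE 0.22, adjusted p = 0.00162), as was ENSOARG00000003193 (0.58, SE 0.18, adjusted p = 0.0128). ENSOARG00000017409 was lower (−0.72, SE 0.11, adjusted p = 3.8e-05). ENSOARG00000008705 and ENSOARG00000020340 did not pass (0.07, SE 0.15, and −0.01, SE 0.11).

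Variation within groups was also compared between genes. After the mean of each arm and sampling was removed, the correlation over the 36 libraries averaged 0.041 over 190 pairs of higher genes and 0.057 over 325 pairs of lower genes. It was −0.036 over 520 pairs of 1 higher and 1 lower gene, and 0.008 over all pairs of the 12392 genes. Libraries share animals and genes share libraries, so these values are a description.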

How the data were processed

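Total RNA of 9 sheep was sequenced in 36 libraries, and the 46 genes and the lists drawn from them were chosen with earlier results of these data known. Each deposited file gives a signal for every Ensembl gene in 1 library, and its unit is not stated. Per the labels' protocols the libraries are stranded total RNA. STAR 2.3.0e, R 3.0.2 and the assembly Oar_v3.1 appear in the submitters' processing notes with no role stated. Not given in the sources used here are the counting tool, its use of strand, the annotation and how size factors were made, so overlapping and antisense genes may share reads. Each library's values were whole multiples of 1 step (0.512 to 1.62), with 100% of values up to 100 reads within 0.1 of a whole read, and were read as reads divided by a size factor. That size factor was kept.

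Limma 3.58.1 (R 4.3.3) with a mean-dependent prior was fitted to log2(value + 1) for 16417 genes with a median of at least 0.5, with two-sided p adjusted by Benjamini-Hochberg over all of them and a false discovery rate of 0.05. It was tested on simulated data. Changes within animals were fitted on the 36 libraries together with a block for the animal, and single samplings their 9 libraries. Fold changes on this scale are closer to 0 for scarce genes. Alternatives were a pseudocount of 0.5, no filter, TMM, edgeR 4.0.16 and DESeq2 1.42.0 on recovered reads, no block, fewer libraries, and each animal left out. Both count tools for treated against CONTROL animals were added after the data were seen.

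The same animals gave repeated biopsies, which pairs the libraries: deviations from group means had a mean r of 0.29 in 54 same-animal pairs (lowest −0.06) and −0.15 in 108 others. No 2 libraries of the same arm and sampling were copies (median chi-square per gene 1.64 to 13.6 in 36 pairs). Pairs from different groups were not checked for copies in this way. Named genes are the 2 in each direction with the largest END-CC difference and the 2 in each direction with the smallest p for release under drug against both untreated arms. No identifier matched the 35057 entries of the name table, so lists of cell types, pathways and sequences were not used here.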

Additional observations from a re-analysis of the deposited data

Results flagged for a closer look

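The results below stood out by a test of the difference between arms. The change over release of ENSOARG00000003424 differed between N22W and the 6 untreated animals by −2.72 (log2, SE 0.46, limma adjusted p = 0.0195), with a lower value at TR than at PRE in 3 of 3 treated and a higher one in 6 of 6 untreated animals. That of ENSOARG00000008705 differed by 1.71 (SE 0.33, adjusted p = 0.0432), with each of the 3 N22W animals above each of the 6 others. Among 14 groups of 6 animals that were checked, none had a single sample far from the rest, where chance gives about 1 in 20. Arms of 3 animals were not checked in this way. For the lower gene ENSOARG00000013534, CONTROL animal 2903 had 7419 normalized reads at TR, against 392.6 in 2901 and 800.9 in 2902. N22W animals had 268.5, 202.7 and 273.2, below all of these. The high library enters this gene's TR difference from CONTROL (log2 −2.43, SE 0.82). It also enters the release difference from both untreated arms (log2 −1.78, SE 0.56).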

How the results depend on the processing

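The rule chose 46 to 48 genes with a pseudocount of 0.5 or TMM scaling. It chose 54 to 139 with an animal left out, where fewer values had to part. Of the 46 it chose again 46 with the pseudocount, 45 with TMM and 32 to 43 with an animal left out. Of the 46, the count called for release against both untreated arms was 2 (9 of all 16417 genes tested). With a pseudocount of 0.5 it was 1 (5 of 16417). It was 0 with only the libraries compared and 0 with no replicate block (the pairing by animal). With an animal left out it was 0 to 4, the most without 2909 (27 of 16434). Against CONTROL alone it was 0 (0 of 16417), but 3 with no filter on low values (15 of 21641). It was 3 by edgeR (11 of 16417) and 4 by DESeq2 (27 of 16417). With an animal left out it was 0 to 2, the most without 2909 (6 of 16434). At TR it was 1 (4 of 16417), but 0 with no filter on low values and 0 with only both arms. DESeq2 called 4 there (44 of 16417), and it was 0 to 1 with an animal left out. For END against END-CC the count was 14 (6377 of 16417), and 9 with no replicate block (4977 of 16417). DESeq2 called 8 of the 46 between treated and CONTROL animals at END-CC and 5 at END, where limma and edgeR called 0. These values chose the 46, so such calls among them are built in and test nothing. The cause of these shifts was not tested, beyond the fewer libraries of some fits. At PRE and between N22W and N6W all settings run called 0 of the 46, where none called more than 29 of all genes (DESeq2 at END-CC).

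The count in the END-CC direction stayed at 36 to 39 for release against both arms, 34 to 39 against CONTROL, 41 to 45 at TR and 20 to 26 at PRE over all settings run. The sign of ENSOARG00000017989, near 0, turned with animals left out (−0.27 to 0.06 for release against both arms, −0.21 to 0.12 against CONTROL, −0.13 to 0.07 at TR) and by edgeR and DESeq2 (0.02 each). With 3 animals per arm and 15 of the 46 genes under 10 reads in some library, small differences could not be resolved.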
